A study of Mus musculus with 14 samples.

Results

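The neuromuscular junction is the contact at which a motor nerve releases acetylcholine onto a muscle fibre. The fibre answers through the nicotinic acetylcholine receptor, a pentamer that holds an epsilon subunit in adult muscle and a gamma subunit in fetal or denervated muscle. Agrin secreted by the nerve binds Lrp4, which activates the kinase MuSK; Dok7 is the adaptor that MuSK needs, and rapsyn anchors the receptors in clusters beneath the nerve ending. With earlier results of these data known, these genes were chosen by name for these known roles, 5 receptor subunits (Chrna1, Chrnb1, Chrnd, Chrne, Chrng) and 5 genes of the clustering pathway (Agrn, Lrp4, Musk, Dok7, Rapsn). They are 10 of 54532 genes in the deposited tables, and all 10 were among the 15458 genes with enough counts to be tested.

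RNA-seq was carried out on skeletal muscle of male FVB/N mice, to ask how c-Myc overexpression in the endothelium bears on the response to a fatty diet. Overexpressing mice (OE) carried both Cdh5-tTA, a transactivator driven by the promoter of an endothelial cadherin, and Tet-O-Myc, a human c-Myc transgene that lies on the Y chromosome in this model. CT mice, the controls, came from the same litters and had Tet-O-Myc alone. Doxycycline in the feed keeps the transgene off and was taken away at 4 to 6 weeks of age, and mice of both genotypes received a control diet (CTD) or a western high-fat diet (WD). The labels give 20 weeks of diet, and the study, where it describes these libraries, gives 10 weeks. There were 3 CT-CTD, 3 CT-WD, 4 OE-CTD and 4 OE-WD libraries, 14 in all, named here by group and replicate number. The study took RNA from soleus and gastrocnemius, and the labels do not say which muscle a library came from. Group sizes stated in the study differ from those in the labels, and the labels were followed. The labels call the libraries replicates without saying that each came from its own animal, so p-values measure the spread between these libraries.

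Total counts per library ran from 21833839 to 28519159, so depth was similar in all groups. Muscle fibre markers were abundant in each library. Acta1, the skeletal actin, was the highest of the 6 with a mean of 30600 FPKM (counts scaled to gene length and library size), and the 6 genes summed to between 34600 and 48400 FPKM per library. Description labels separate some libraries. All 4 OE-WD libraries carry 1 number, 3 of the 4 OE-CTD libraries carry another, and the CT libraries numbered 1 carry numbers apart from those of the other CT libraries. What the numbers stand for is not given in the sources used here, and neither genotype nor the diet difference within OE, nor the interaction built on it, can be told apart from them.

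Levels between genes were compared as FPKM, which divides by gene length. Rapsn (median 18.2 FPKM over 14 libraries) and Chrnb1 (17.6) were the highest, followed by Chrne (11.4), Dok7 (8.65), Chrna1 (7.32), Musk (7.15), Agrn (3.17), Chrnd (1.55), Lrp4 (1.28) and Chrng (0.121). The ranges of most neighbours in this order overlapped, but no library of Musk fell below the highest library of Agrn, and none of Agrn or Lrp4 below the highest of the gene that followed it. Dividing by the longest protein-coding transcript instead, a choice made after seeing the data, exchanged Rapsn with Chrnb1, Chrne with Dok7, and Chrna1 with Musk. The spread over the 14 libraries differed between members. The highest CPM (counts relative to a TMM-adjusted library total) was 1.36 times the lowest for Rapsn and 1.43 times for Agrn, against 4.5 times for Musk and 9.41 times for Chrng, which rests on 2 to 20 counts per library.

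Among the receptor subunits, Chrna1 (ENSMUSG00000027107, chr2:73563215-73580338, minus strand, build mm10 here and below) encodes the alpha subunit, which carries the acetylcholine binding site. Its level was 30.6 ± 5.84 CPM in CT-CTD (SD, n = 3), 28.8 ± 3.53 in CT-WD (n = 3), 29.5 ± 2.32 in OE-CTD (n = 4) and 28.7 ± 2.80 in OE-WD (n = 4). The groups overlapped in all pairs. Chrnd (ENSMUSG00000026251, chr1:87190607-87200070, plus strand), the delta subunit, ran from 3.56 to 5.40 CPM in CT-CTD and from 3.82 to 4.52 in CT-WD. The OE libraries had 3.79 to 6.33 (OE-CTD) and 4.08 to 6.17 (OE-WD), again with overlap.

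Chrnb1 (ENSMUSG00000041189, chr11:69784036-69795943, minus strand) encodes the beta subunit. It was at 37.9, 50.3 and 53.6 CPM in CT-CTD, at 37.4, 53.8 and 70.8 in CT-WD, at 40.1, 41.0, 40.7 and 32.3 in OE-CTD, and at 44.8, 34.5, 42.5 and 36.9 in OE-WD. CT libraries 2 and 3 of both diets lay above all 8 OE libraries, while the CT libraries numbered 1 lay among them. In OE-WD against CT-WD the log2 fold change was -0.44 (SE 0.175, unadjusted p = 0.0228, Benjamini-Hochberg adjusted p = 0.22, edgeR quasi-likelihood test), so Chrnb1 did not pass the threshold. Without CT-WD 1 it was -0.65 with an adjusted p of 0.0175 in the same edgeR test, and without CT-WD 3 it was -0.20. Over its alternatives the adjusted p ran from 0.00935 to 0.744.

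Chrne (ENSMUSG00000014609, chr11:70614883-70619216, minus strand) encodes the epsilon subunit of the adult receptor. It was at 17.1 ± 1.11 CPM in CT-CTD (SD, n = 3), 18.0 ± 4.16 in CT-WD (n = 3), 18.3 ± 1.36 in OE-CTD (n = 4) and 18.4 ± 2.13 in OE-WD (n = 4), with overlap in all pairs. A gene on the opposite strand, 4930544D05Rik, overlaps it at a mean of 3.55 CPM, and Gm13778 overlaps Rapsn at 0.924 CPM. The strand setting of the count is not given in the sources used here, so reads of such pairs cannot be told apart.

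Chrng (ENSMUSG00000026253, chr1:87204657-87212694, plus strand) encodes the gamma subunit of the fetal receptor. It had 10, 20 and 14 counts in CT-CTD, 13, 3 and 2 in CT-WD, 9, 14, 13 and 13 in OE-CTD, with 15, 7, 13 and 10 for OE-WD. CT-WD 2 and CT-WD 3 were the lowest of the 14 libraries, and CT-WD 1 was within the range of CT-CTD. In CT-WD against CT-CTD the log2 fold change was -1.27 (SE 0.566, unadjusted p = 0.0407, edgeR quasi-likelihood test with Benjamini-Hochberg adjusted p = 0.667). With the replicate number as a block, which these CT libraries were taken to share, its unadjusted p was 0.061. At these counts the estimate was -2.31 when CT-WD 1 was left out and -0.89 when CT-WD 3 was. On the log2(FPKM + 1) scale, which understates changes of low genes, it was -0.12.

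The ratio of fetal to adult subunit within a library does not depend on how libraries are scaled. The log2 ratio of Chrng to Chrne counts, with 0.5 added to each, was -5.29, -4.42 and -4.86 in CT-CTD and -5.07, -7.07 and -7.07 in CT-WD. It was -5.74, -5.22, -5.12 and -4.59 in OE-CTD, with -5.16, -6.05, -4.97 and -5.31 for OE-WD. Chrng made up between 0.592% (exact 95% binomial interval 0.0717 to 2.12) of both genes' counts in CT-WD 3 and 4.36% (2.68 to 6.65) in CT-CTD 2, intervals that cover counting error only. The mean ratio differed by -1.55 in CT-WD against CT-CTD (two-sided exact permutation p = 0.2, where 0.1 is the smallest p that 3 against 3 allows), by -0.20 in OE-WD against OE-CTD (p = 0.571, smallest 0.0286), by -0.31 in OE-CTD against CT-CTD (p = 0.457, smallest 0.0571) and by 1.04 in OE-WD against CT-WD (p = 0.229, smallest 0.0571). Only the test of OE-WD against OE-CTD could reach a p under 0.05, so the other 3 p values do not say whether the ratio differed. Within CT libraries of the same number the diet difference was the same -1.55 (exact sign-flip permutation test, p = 0.5, which with 3 pairs cannot go under 0.05).

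Single libraries moved these differences of the Chrng to Chrne ratio. In OE-WD against CT-WD the difference was 1.70 without CT-WD 1. In OE-CTD against CT-CTD it was -0.09 without CT-CTD 2, -0.12 without OE-CTD 1, -0.53 without CT-CTD 1 and -0.50 without OE-CTD 4. In OE-WD against OE-CTD it was -0.39 without OE-CTD 1, -0.34 without OE-WD 3, -0.01 without OE-CTD 4 and 0.03 without OE-WD 2. On log2(FPKM + 0.1), where Chrng lies near the constant, CT-WD against CT-CTD gave -0.75 and OE-WD against CT-WD 0.41.

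In the clustering pathway, Agrn (ENSMUSG00000041936, chr4:156165290-156197488, minus strand) encodes agrin. It was at 21.6, 22.9 and 24.2 CPM in CT-CTD, at 25.6, 27.2 and 22.2 in CT-WD, at 26.9, 28.2, 27.3 and 27.1 in OE-CTD, and at 26.1, 28.8, 29.01 and 30.8 in OE-WD. All OE-CTD libraries lay above all CT-CTD libraries, and OE-WD overlapped CT-WD. The log2 fold change was 0.26 in OE-CTD against CT-CTD (SE 0.0872, unadjusted p = 0.00926, Benjamini-Hochberg adjusted p = 0.139 by edgeR) and 0.20 in OE-WD against CT-WD (SE 0.0869, unadjusted p = 0.0372, adjusted p = 0.264). Neither passed the threshold, and the change on the western diet was 0.12 without CT-WD 3 (unadjusted p = 0.206). Lrp4 (ENSMUSG00000027253, chr2:91457511-91513779, plus strand), the agrin receptor, ranged from 7.78 to 17.5 CPM and overlapped in all pairs of groups.

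Musk (ENSMUSG00000057280, chr4:58285960-58374303, plus strand) encodes the receptor kinase. It was at 24.2, 36.2 and 49.1 CPM in CT-CTD and at 20.6, 42.1 and 62.4 in CT-WD. It was at 13.9, 14.7, 16.5 and 28.9 in OE-CTD and at 25.5, 15.5, 17.8 and 28.7 in OE-WD. CT libraries 2 and 3 were above all 8 OE libraries, and the CT libraries numbered 1 were below OE-CTD 4, OE-WD 1 and OE-WD 4. The log2 fold change was -0.99 in OE-CTD against CT-CTD (SE 0.342, unadjusted p = 0.011, Benjamini-Hochberg adjusted p = 0.153 by edgeR) and -0.93 in OE-WD against CT-WD (SE 0.34, unadjusted p = 0.0151, adjusted p = 0.186), so the threshold was not passed. Without CT-WD 3 the change in OE-WD against CT-WD was -0.52 (unadjusted p = 0.155, adjusted p = 0.666 by edgeR). The threshold was passed without CT-WD 1 (-1.26, adjusted p = 0.0215 by edgeR, OE-WD against CT-WD) and, with no filter on low counts, at adjusted p = 0.00543 and 0.015. Leaving out both CT libraries numbered 1, chosen after seeing the data, gave -1.22 (adjusted p = 0.027 by edgeR) and -1.26 (adjusted p = 0.014). Over all alternatives the adjusted p ran from 0.00543 to 0.501 on the control diet and from 0.014 to 0.666 on the western diet. In OE-WD against OE-CTD Musk had the largest change of the 10 genes, 0.25 (SE 0.323, unadjusted p = 0.454, adjusted p = 1 by edgeR). It ran from 0.09 without OE-WD 4 to 0.54 without OE-CTD 4. These 2 libraries were the highest of their groups in Musk, had the lowest TMM factors of the 14 (0.899 and 0.888) and the highest sums of muscle fibre markers (47900 and 48400 FPKM), whose part in Musk was not tested. The total that FPKM divides by was also the lowest share of the counts in them (80.83% and 79.93%), which raises their FPKM. The sums and the TMM factors are therefore not fully separate traits.

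Dok7 (ENSMUSG00000044716, chr5:35056766-35087839, plus strand) was at 33.3, 23.2 and 30.1 CPM in CT-CTD, at 35.3, 40.8 and 37.6 in CT-WD, at 32.6, 33.8, 35.9 and 33.6 in OE-CTD, and at 36.3, 30.4, 31.9 and 37.6 in OE-WD. All CT-WD libraries lay above all CT-CTD libraries, and the OE groups overlapped. The log2 fold change was 0.39 in CT-WD against CT-CTD (SE 0.121, unadjusted p = 0.00533, Benjamini-Hochberg adjusted p = 0.516 by edgeR), and 0.26 without CT-CTD 2. The diet by genotype interaction was -0.39 for Dok7 (SE 0.159, unadjusted p = 0.0275, adjusted p = 0.834 by edgeR) and 1.10 for Chrng (SE 0.733, unadjusted p = 0.153), the largest among the 10 genes. Without CT-CTD 2 that of Dok7 was -0.25, and that of Chrng was 2.15 without CT-WD 1 and 0.73 without CT-WD 3, with 0.105 for Chrng on log2(FPKM + 1). Rapsn (ENSMUSG00000002104, chr2:91035620-91045729, plus strand), the anchor of the receptors, was at 25.8, 31.3 and 34.2 CPM in CT-CTD, at 31.1, 31.3 and 32.9 in CT-WD, at 29.6, 31.0, 26.3 and 27.3 in OE-CTD, and at 25.1, 26.4, 28.6 and 29.9 in OE-WD. All CT-WD libraries lay above all OE-WD and OE-CTD libraries.

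**Figure D1:**
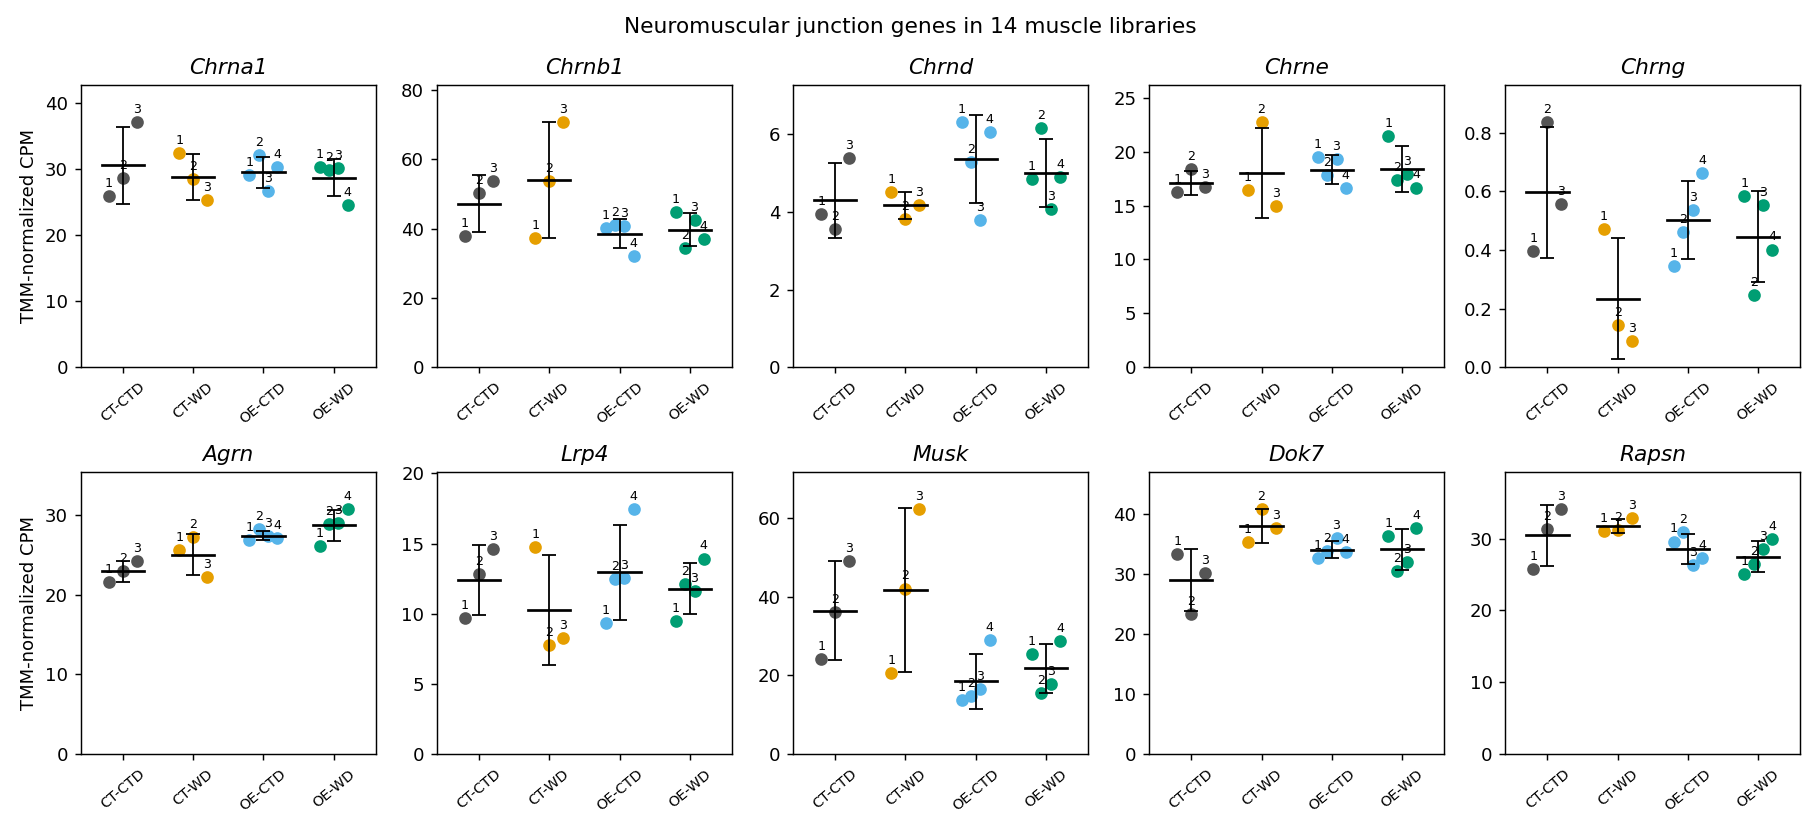
TMM-normalized CPM (y axis) of the 10 genes in each of the 14 libraries by group (x axis), numbered by replicate; the thick line is the group mean and the bar is ± 1 SD. Musk and Chrnb1 are higher in CT libraries 2 and 3 than in all 8 OE libraries.

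Called genes had an adjusted p under 0.05 and a fold over 1.5 in edgeR's quasi-likelihood test. In CT-WD against CT-CTD, 0 of the 10 genes were called (0% of all tested genes), 2 had an unadjusted p under 0.05 (7.28%) and 1 did not overlap between groups (9.63%). In OE-WD against OE-CTD the counts were 0 (0.00647%), 0 (4.2%) and 0 (4.08%). In OE-CTD against CT-CTD they were 0 (1.91%), 2 (15.9%) and 1 (15.5%). In OE-WD against CT-WD they were 0 (0.563%), 3 (16.9%) and 1 (11.6%). In the interaction 0 were called (0%) and 1 had an unadjusted p under 0.05 (5.92%). DESeq2 and limma also called 0 of the 10 in each comparison. The median log2 fold change of the 10 was 0.07, -0.02, 0.01 and 0.01 in the 4 comparisons of groups, beside 0.01, 0.00, 0.00 and 0.01 over all tested genes. The comparisons of genotype share their CT libraries with the comparisons of diet.

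**Figure D2:**
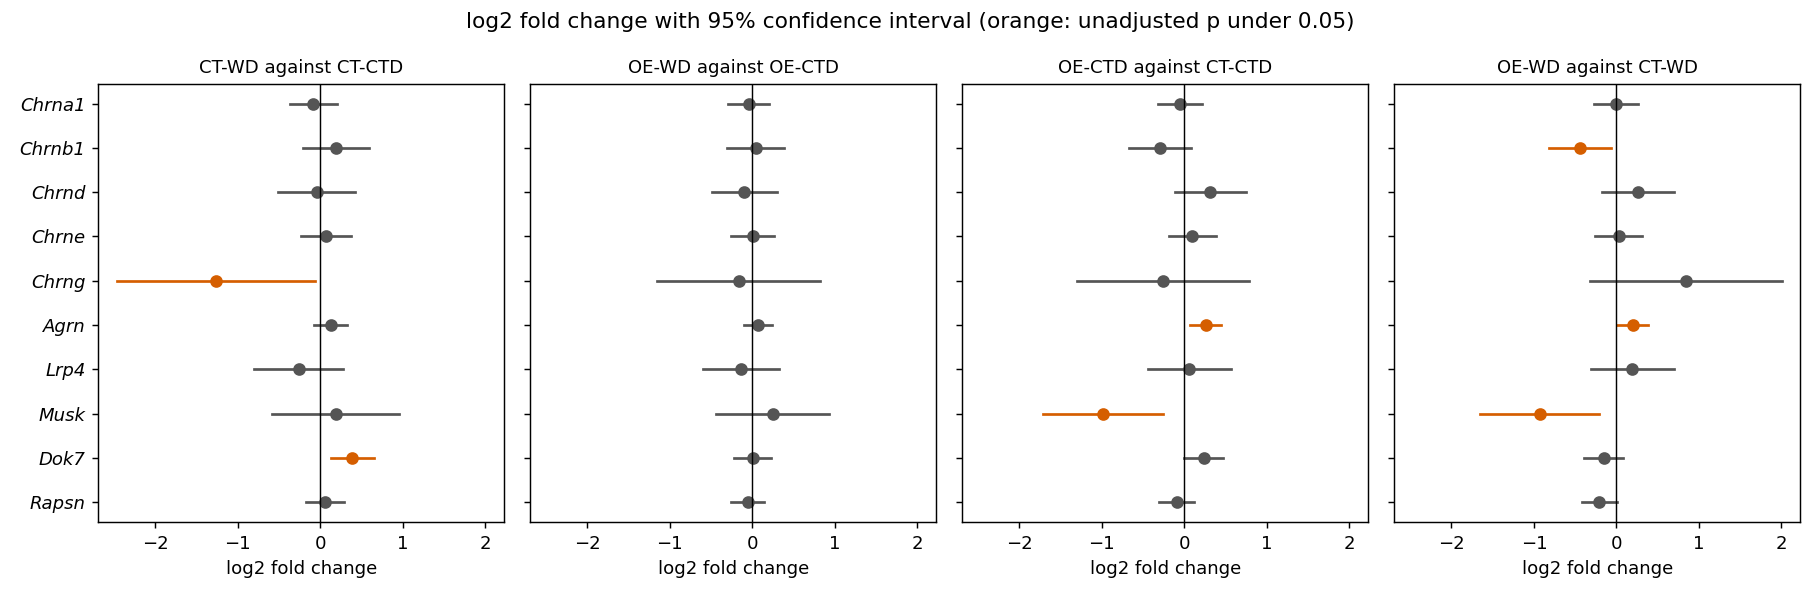
log2 fold change (x axis) of each gene (y axis) in the 4 comparisons of groups, with its 95% confidence interval from the edgeR fit; orange marks an unadjusted p under 0.05. The interval of Musk lies below 0 in both comparisons of genotype, and none of the adjusted p values was under 0.05.

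Among 45 pairs of the 10 genes, 0 were correlated over the 14 libraries at an adjusted p under 0.05. By Pearson r the strongest was Musk with Chrnb1 (r = 0.732, permutation p = 0.00253, adjusted p = 0.114). Its Spearman rho was 0.521 (permutation p = 0.0601, adjusted p = 0.503). By Spearman rho the strongest was Chrng with Lrp4 (rho = 0.631, permutation p = 0.0186, adjusted p = 0.503, with r = 0.682). After each group's mean was taken away, r was 0.56 for Musk with Chrnb1 and 0.627 for Chrng with Lrp4. Without CT-WD 2 and CT-WD 3 it was 0.483 and 0.339, so both relations rest in part on those 2 libraries. The 5 genes whose log2 CPM was most like the mean of the 10 were Ash1l (r = 0.865 over 14 libraries), Mkln1 (0.855), Ipo11 (0.847), Clasp1 (0.84) and Fam120c (0.839), given as a description.

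Genes that act around these 10 were read from further lists. The lists were also chosen with earlier results of these data known, so their counts of called genes are a description. Of 9 genes of the synaptic cleft, the matrix between nerve and fibre, 1 was called higher in OE-CTD against CT-CTD (1.91% of all tested genes were called) and 2 in OE-WD against CT-WD (0.563%), with 0 in both comparisons of diet. Lama4, a laminin chain of synaptic and vessel basement membranes, was at 14.8, 19.2 and 17.6 CPM in CT-CTD, at 20.6, 16.7 and 18.4 in CT-WD, at 26.3, 32.1, 28.5 and 29.04 in OE-CTD and at 26.2, 35.1, 27.6 and 31.9 in OE-WD. All 8 OE libraries lay above all 6 CT libraries. Its log2 fold change was 0.76 in OE-CTD against CT-CTD (SE 0.123, Benjamini-Hochberg adjusted p = 0.00627 by edgeR) and 0.70 in OE-WD against CT-WD (SE 0.122, adjusted p = 0.0277). With the replicate number as a block, the adjusted p of Lama4 was 0.0804 and 0.238. Between genotypes, deviations from group means of libraries with the same number correlated at -0.23 to 0.0465. In comparisons of genotype, here and below, the block therefore shares only a number. An adjusted p raised under it cannot tell a weak call from the cost of the added terms. Nid2, a nidogen of the basement membrane, was at 11.2, 8.12 and 11.3 CPM in CT-WD and at 14.2, 21.6, 14.7 and 21.6 in OE-WD, without overlap. Its log2 fold change was 0.82 (SE 0.163, adjusted p = 0.0325 by edgeR, 0.276 with the block). On the control diet Nid2 was at 10.24 to 12.05 CPM in CT-CTD and 15.77 to 17.44 in OE-CTD, also without overlap. There it was not called by edgeR (0.59, SE 0.161, adjusted p = 0.0668, 0.18 with the block). It was called by DESeq2 (adjusted p = 0.0151) and by edgeR with no filter (0.0169) or with only the groups compared (0.0102). Leaving out any of 5 libraries, CT-WD 2, CT-WD 3 or OE-WD 2 to 4, ended the call of Lama4 and of Nid2 on the western diet. With 1 library left out the log2 fold change there ran from 0.62 to 0.78 for Lama4 and from 0.68 to 0.92 for Nid2. Both calls were also lost with limma on log2(FPKM + 1) (adjusted p = 0.0533 and 0.0582) and on log2(FPKM + 0.1) (0.0568 for both). With only the groups compared the adjusted p by edgeR was 0.117 and 0.182, at log2 fold changes of 0.70 and 0.82.

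Of 11 tested genes that denervated muscle is known to raise or lower, 1 was called lower in each comparison of genotype (1.91% of all tested genes were called in OE-CTD against CT-CTD and 0.563% in OE-WD against CT-WD). By direction, 6 of the 11 were higher and 5 lower in OE-CTD against CT-CTD, of which 1 and 3 had an unadjusted p under 0.05 (15.9% of all tested genes in both directions). On the western diet 5 were higher and 6 lower with genotype, of which 1 and 4 did (16.9%). Diet gave 4 of 11 in CT-WD against CT-CTD (7.28%) and 2 in OE-WD against OE-CTD (4.2%). Myod1, a myogenic transcription factor, was at 24.6, 42.6 and 34.6 CPM in CT-CTD and at 22.3, 19.3, 22.5 and 20.1 in OE-CTD, without overlap (log2 fold change -0.69, SE 0.16, Benjamini-Hochberg adjusted p = 0.0346 by edgeR, 0.151 with the replicate block). Gadd45a, a stress-response gene, was at 22.4, 14.2 and 24.9 CPM in CT-WD and at 12.1, 7.996, 9.19 and 6.71 in OE-WD, without overlap (log2 fold change -1.19, SE 0.238, adjusted p = 0.0345 by edgeR, 0.219 with the block). The call of Myod1 was lost without any 1 of 6 libraries, CT-CTD 2 or 3 or any OE-CTD library, and that of Gadd45a without CT-WD 3 or OE-WD 2, 3 or 4. Both calls were also lost with limma on log2(FPKM + 1) (adjusted p = 0.0742 and 0.056) and on log2(FPKM + 0.1) (0.0694 and 0.0593). With only the groups compared, that of Gadd45a was lost too (adjusted p = 0.141 by edgeR). Myog, the myogenic factor myogenin, was at 5.85, 6.90 and 9.41 CPM in CT-CTD, at 7.95, 18.9 and 76.6 in CT-WD, at 8.43, 9.27, 11.8 and 9.54 in OE-CTD and at 9.46, 5.86, 8.64 and 6.75 in OE-WD. CT-WD 3 stood far above the other 13 libraries, and CT-WD 1 was within the range of CT-CTD. Its log2 fold change was 2.22 in CT-WD against CT-CTD (SE 0.544, adjusted p = 0.394 by edgeR) and -2.17 in OE-WD against CT-WD (SE 0.492, adjusted p = 0.0559), neither past the threshold. Without CT-WD 3 the changes of Myog were 0.85 and -0.80, and without CT-WD 1 they were 2.69 and -2.64 with an adjusted p of 0.00959 and 0.00146. Both also passed with no filter on low counts (adjusted p = 0.00033 and 0.0000277), and the second passed with DESeq2 (0.00982). DESeq2 also called Myh8, a neonatal myosin, lower in OE-CTD against CT-CTD (adjusted p = 0.044), which edgeR did not (log2 fold change -1.51, adjusted p = 0.0761, and 0.00113 with no filter). It was at 4.47, 19.8 and 5.48 CPM in CT-CTD and at 3.34, 3.73, 3.09 and 3.73 in OE-CTD. CT-CTD 2 carried most of this change, which was -0.52 without it (unadjusted p = 0.113, adjusted p = 0.56 by edgeR). The interaction of Myog was -2.57 (SE 0.713, adjusted p = 0.825 by edgeR), and -1.20 without CT-WD 3.

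**Figure D3:**
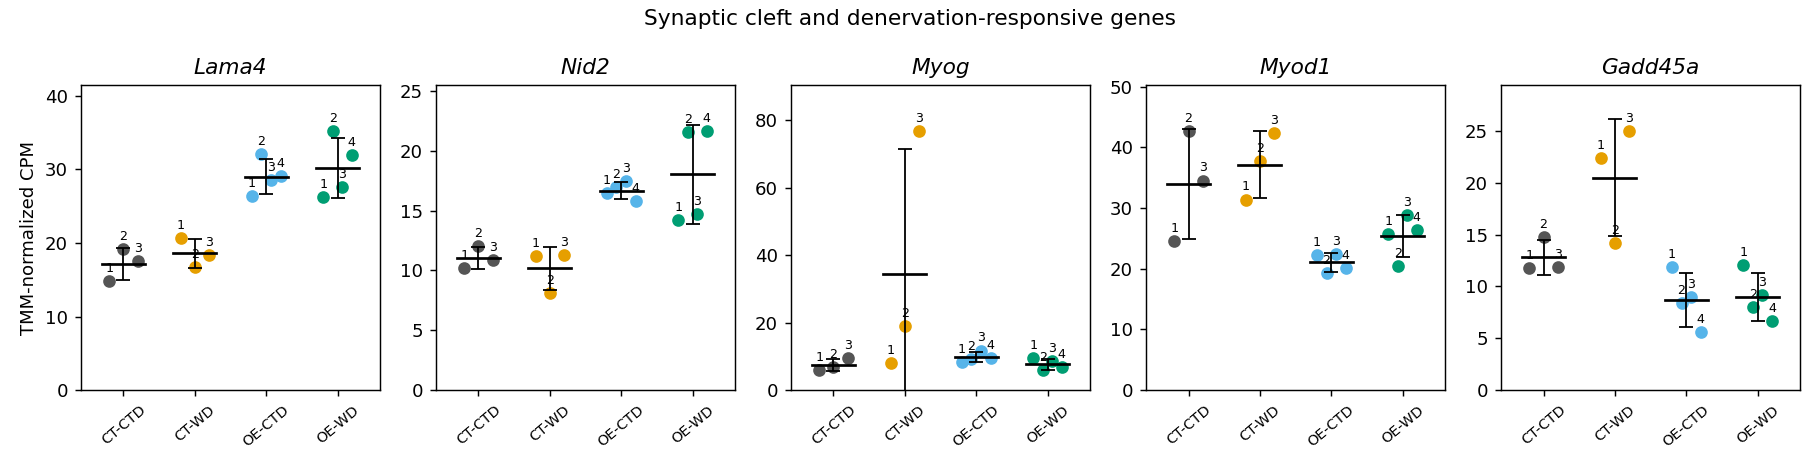
TMM-normalized CPM (y axis) of 5 genes in each library by group (x axis), numbered by replicate, with the group mean and ± 1 SD; the lower bar of Myog in CT-WD runs below the axis. Lama4 is higher in all 8 OE libraries than in all 6 CT libraries, and Myog in CT-WD reaches 76.6 CPM in 1 library.

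In the other lists of the synapse 0 genes were called by edgeR in any of the 5 comparisons. Of 8 scaffold genes, 2 had an unadjusted p under 0.05 in OE-CTD against CT-CTD (15.9% of all tested genes) and 2 in OE-WD against CT-WD (16.9%). Of 20 tested signalling genes the numbers were 5 and 8. In OE-WD against OE-CTD 5 of the 20 had an unadjusted p under 0.05 (4.2% of all tested genes), 4 higher and 1 lower, and in CT-WD against CT-CTD 1 did (7.28%). Smallest in OE-WD against OE-CTD were Gabpb1, a subunit of an ETS factor (log2 fold change 0.41, SE 0.114, unadjusted p = 0.00232, adjusted p = 1 by edgeR, 0.22 on log2(FPKM + 1)), and Erbb4, a neuregulin receptor (-0.95, SE 0.353, unadjusted p = 0.0166, adjusted p = 1, -0.04 on log2(FPKM + 1)). Both did not overlap between these groups. Pdzrn3, a ubiquitin ligase that acts on MuSK, had an adjusted p of 0.0451 by edgeR in OE-CTD against CT-CTD at a log2 fold change of 0.41, below the fold threshold. That adjusted p was 0.141 with the replicate block and up to 0.234 over the alternatives (without CT-CTD 3). Etv5, an ETS factor of synaptic nuclei, was at 0.45 in OE-WD against CT-WD (SE 0.125, adjusted p = 0.101 by edgeR). It was lower in CT-WD against CT-CTD (-0.34, SE 0.133, unadjusted p = 0.022, adjusted p = 0.601 by edgeR), without overlap. The CT-WD libraries, at 14.35, 12.37 and 15.56 CPM of Etv5, are shared by these 2 comparisons. Of 5 glycosylation genes of congenital myasthenia, 1 had an unadjusted p under 0.05 in OE-WD against CT-WD, Gmppb (0.75, SE 0.24, adjusted p = 0.141 by edgeR, and 0.43 on log2(FPKM + 1)). In CT-WD against CT-CTD 1 of the 5 did (7.28% of all tested genes), again Gmppb, which was lower (-0.65, SE 0.255, unadjusted p = 0.0218, adjusted p = 0.6 by edgeR, -0.37 on log2(FPKM + 1)). Both comparisons share the CT-WD libraries, at 2.10, 2.71 and 3.42 CPM.

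Of the markers of other cells 0 were called by edgeR in the main fit, and bulk RNA cannot tell fewer cells of a type from less RNA per cell. In CT-WD against CT-CTD 9 of 10 endothelial markers were higher and 1 lower, of which 2 and 1 had an unadjusted p under 0.05 (7.28% of all tested genes). Cldn5 was at a log2 fold change of 0.74 (adjusted p = 0.427 by edgeR, and 0.021 with no filter). Of 8 fibroblast and tendon markers 1 did, Pdgfra (0.69, adjusted p = 0.509 by edgeR, and 0.40 without CT-WD 1). In OE-CTD against CT-CTD, 7 of 8 fibroblast and tendon markers, 5 of 10 endothelial markers, 4 of 5 macrophage markers and 4 of 8 slow fibre genes had an unadjusted p under 0.05, all higher in OE, beside 15.9% of all tested genes. In OE-WD against CT-WD the numbers were 2, 6, 0 and 3, beside 16.9% of all, with 1 of the 6 endothelial genes lower. By direction all 8 fibroblast and tendon markers were higher there. The endothelial markers were 6 higher and 4 lower, the macrophage markers 4 and 1, and the slow fibre genes 3 and 5. Without CT-WD 1 the calls by edgeR included Col1a1 (log2 fold change 2.74, adjusted p = 0.00196, against 1.30 with it) and Col1a2 (2.44, adjusted p = 0.00377, against 1.14). Myh7, a slow fibre gene, was also called without it (0.60, adjusted p = 0.0475, against 0.50). Tek, an endothelial receptor, had an adjusted p of 0.0232 by edgeR in OE-CTD against CT-CTD (log2 fold change 0.52, SE 0.11, 0.0824 with the replicate block), and Cdh5, the endothelial cadherin, 0.0322 in OE-WD against CT-WD (0.46, SE 0.0905, 0.222 with the block), both below the fold threshold. DESeq2 called Pdgfra (adjusted p = 0.00606), Col3a1 (0.0489) and Cd68 (0.046) higher in OE-CTD against CT-CTD, where edgeR gave 0.0526, 0.0714 and 0.149. The fibroblast and tendon markers, led by Fmod (mean 63.5 FPKM), summed to 125, 82.9 and 86.6 FPKM in CT-CTD, 288, 74.1 and 70.9 in CT-WD, 248, 323, 279 and 178 in OE-CTD, with 208, 480, 287 and 197 for OE-WD. The endothelial markers, led by Cdh5 (24.2 FPKM), summed to 102, 99.7 and 99 FPKM in CT-CTD, 127, 114 and 116 in CT-WD, 125, 125, 123 and 108 in OE-CTD, with 128, 124, 136 and 125 for OE-WD. The slow fibre genes, led by Myl3 (400 FPKM), summed to 1710, 1480 and 1980 FPKM in CT-CTD, 1620, 1900 and 2060 in CT-WD, 2090, 1960, 1960 and 2250 in OE-CTD, with 1950, 1920, 1710 and 2010 for OE-WD. No marker of these lists was at 0 in all libraries. Their part in the values of Musk, Chrnb1, Agrn, Lama4, Nid2, Myod1 and Gadd45a, or in the diet changes of Dok7 and Chrng, was not tested.

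The CT libraries numbered 1, lowest of the CT libraries in Musk and Chrnb1, were the highest of them in the summed FPKM of 4 lists of markers. These were the lists of fibroblasts and tendon, macrophages, adipocytes, and epidermis and hair. Some genes of these lists went the other way. Scx was at 5.655 CPM in CT-CTD 1 against 6.778 and 12.31 in CT-CTD 2 and 3. Lep was at 1.977 in CT-CTD 1 against 8.159 in CT-CTD 2, and Trp63 at 8.93 in CT-WD 1 against 12.51 and 24.49 in CT-WD 2 and 3. The macrophage markers, led by Cd68 (3.3 FPKM), summed to 8.89, 5.19 and 4.77 FPKM in CT-CTD, 13.5, 5.87 and 6.34 in CT-WD, 8.43, 11.1, 15.7 and 10.4 in OE-CTD, with 7.58, 15.1, 8.68 and 11.4 for OE-WD. The adipocyte markers, led by Fabp4 (52.5 FPKM), summed to 230, 118 and 86 FPKM in CT-CTD, 188, 90.8 and 84.2 in CT-WD, 103, 99.2, 130 and 59.2 in OE-CTD, with 94.9, 124, 109 and 84.7 for OE-WD. The epidermis and hair markers, led by Krt5 (5.02 FPKM), summed to 21.4, 4.07 and 6.22 FPKM in CT-CTD, 38.9, 5.9 and 7.44 in CT-WD, 8.78, 13.8, 16 and 2.94 in OE-CTD, with 7.04, 29.1, 46.5 and 16.2 for OE-WD. The part of these markers in the values of Musk and Chrnb1 was not tested.

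Of 10 motor nerve genes 4 could be tested and Slc18a3 was at 0 in all libraries. The 4 tested were 3 higher and 1 lower in OE-CTD against CT-CTD and 2 and 2 in OE-WD against CT-WD, with 1 in each at an unadjusted p under 0.05 (15.9% and 16.9% of all tested genes), Slc5a7. The list, led by Stmn2 (1.21 FPKM), summed to 1.79, 1.23 and 1.51 FPKM in CT-CTD, 1.9, 1.93 and 2.34 in CT-WD, 2.56, 2, 1.71 and 1.41 in OE-CTD, with 2.33, 2.71, 2.49 and 1.76 for OE-WD, so the groups of each diet overlapped. Stmn2, a protein of growing axons, had a log2 fold change of -0.15 in OE-WD against CT-WD (unadjusted p = 0.441 by edgeR). In CT-WD against CT-CTD it was 0.54 (SE 0.2, unadjusted p = 0.0159, adjusted p = 0.595 by edgeR), without overlap, and 0.35 without CT-WD 3. Of the 4 tested genes 3 were higher and 1 lower there, and 1, Stmn2, had an unadjusted p under 0.05 (7.28% of all tested genes). The list sums of CT-WD lay above those of CT-CTD. Slc5a7, the choline transporter of motor endings, had 0, 4 and 1 counts in CT-CTD, 0 in each CT-WD library, 11, 25, 23 and 5 in OE-CTD, with 0, 15, 3 and 19 for OE-WD. Of the 10 Schwann cell markers 1, Ngfr, had an unadjusted p under 0.05 in OE-CTD against CT-CTD, and of 4 satellite cell markers 0 did in any comparison of groups. Of 6 adipocyte markers 5 were lower and 1 higher in OE-CTD against CT-CTD, and 2 had an unadjusted p under 0.05 there (15.9% of all tested genes), Lep higher (log2 fold change 1.95, SE 0.676, adjusted p = 0.154 by edgeR, and 3.08 without CT-CTD 2) and Cfd lower (-1.34, SE 0.538, adjusted p = 0.229, and -0.48 without CT-CTD 1), both called with no filter on low counts. On the western diet (OE-WD against CT-WD) 4 were higher and 2, Fabp4 and Cfd, lower, and DESeq2 called Lep higher (adjusted p = 0.0415, against 0.114 by edgeR with the filter and 0.000912 without). In OE-CTD against CT-CTD an unadjusted p under 0.05 was found for 0 of 5 tested epidermis and hair markers, 1 of 6 muscle fibre markers and 1 of 10 fast fibre genes. The fast fibre genes, led by Tnnt3 (10500 FPKM), summed to between 43000 and 57900 FPKM, far above the slow fibre genes in every library.

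Promoters of genes active at the junction are known for 2 short motifs, the N-box bound by ETS factors and the E-box bound by myogenic factors. RefSeq promoter entries (GRCm38.p6, 250 bases before to 50 after the start) matched 7 of the 10 genes in 9 entries. The N-box CCGGAA, searched on both strands, was in 1 of the 9 entries, that of Chrne, and in 14.9% of all 32851 promoters. The E-box CANNTG was in 7 of the 9 and in 72.3% of all promoters, and its form CAGCTG, which CANNTG contains, was in 4 of the 9 and in 16.3% of all. A match is a description of the letters in this window. The bases before the start are printed for the genes of the 2 subunits whose ratio was compared, for the alpha subunit and for Musk, which had the widest spread after Chrng, with matches in capitals.
Chrne, chr11:70619195-70619444, minus strand: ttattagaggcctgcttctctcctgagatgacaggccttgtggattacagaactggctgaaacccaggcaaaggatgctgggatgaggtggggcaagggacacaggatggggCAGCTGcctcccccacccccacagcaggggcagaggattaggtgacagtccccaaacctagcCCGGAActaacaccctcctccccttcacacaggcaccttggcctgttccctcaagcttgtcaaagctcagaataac
Chrng, chr1:87205561-87205810, plus strand: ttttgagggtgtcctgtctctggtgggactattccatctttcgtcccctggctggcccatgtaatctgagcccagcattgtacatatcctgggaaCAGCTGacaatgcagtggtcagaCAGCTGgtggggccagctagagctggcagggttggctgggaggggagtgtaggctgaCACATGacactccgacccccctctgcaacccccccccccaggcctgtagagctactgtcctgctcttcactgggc
Chrna1, chr2:73580339-73580588, minus strand: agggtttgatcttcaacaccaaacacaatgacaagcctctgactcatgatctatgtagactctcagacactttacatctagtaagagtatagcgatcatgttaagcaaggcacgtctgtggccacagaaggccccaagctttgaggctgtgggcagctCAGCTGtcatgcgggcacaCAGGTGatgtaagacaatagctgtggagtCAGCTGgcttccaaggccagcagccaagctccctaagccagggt
Musk, chr4:58285712-58285961, plus strand: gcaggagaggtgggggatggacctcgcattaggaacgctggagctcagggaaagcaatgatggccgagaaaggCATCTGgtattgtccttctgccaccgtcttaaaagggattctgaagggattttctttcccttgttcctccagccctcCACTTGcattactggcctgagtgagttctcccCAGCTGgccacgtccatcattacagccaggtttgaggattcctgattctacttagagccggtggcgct
The Chrng window lies inside the annotated span of the gene. Of the 250 bases printed, 22 for Chrne, 1 for Chrng, 0 for Chrna1 and 2 for Musk lie in an annotated exon of GENCODE M21. Chrng and Chrna1 each held 2 CAGCTG matches and Musk and Chrne held 1.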

How the data were processed

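The authors deposited raw counts per gene for each of the 14 libraries and FPKM values, in which counts are divided by gene length and a library constant. Per the labels, polyadenylated RNA was sequenced and the submitters' processing notes name HISAT2 2.0.5, featureCounts 1.5.0-p3 and mm10. Reads were not analysed here. Of 54495 identifiers shared with GENCODE M21, 98.3% had the same position.

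Tests on the counts used R 4.3.3 with edgeR 4.0.16 (TMM, filterByExpr, quasi-likelihood test, a mean for each of 4 groups, Benjamini-Hochberg adjustment over 15458 genes), and the code was tested on simulated data. The ratio of Chrng to Chrne was tested by exact permutation in scipy 1.17.1. Alternatives used DESeq2 1.42.0, limma 3.58.1 on log2 FPKM, other size factors, no filter, a replicate block and each library left out. The members and lists were chosen with earlier results of these data known. A member's fold change was given where its unadjusted p was under 0.05 or its change was the largest. From the other lists, genes called, or up to 2 per list and comparison with the smallest unadjusted p under 0.05, could be named, with the most abundant gene of each list. The summed level of the Schwann cell markers is not reported here.

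Libraries of a group differed by more than sampling noise (chi-square per degree of freedom from 7.76 to 50.3). Deviations from group means correlated within CT pairs of the same number (0.385, 0.123 and 0.203), so these numbers were taken to pair CT-WD with CT-CTD, from this check only. Libraries of unlike numbers were not compared, and values within OE (0.0711 to 0.338) were of like size, so the check does not establish pairing.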

Additional observations from a re-analysis of the deposited data

Results flagged for a closer look

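In groups of 4, a library was singled out where its gap to the nearest other library was large against the range of the group by Dixon's ratio. Of 108 groups of values examined 7 were singled out, and chance gives about 5%. Among the neuromuscular junction genes these were Chrna1 in OE-WD 4 (24.5 CPM, the lowest of its group) and Chrnb1 in OE-CTD 4 (32.3 CPM, the lowest). Among the other genes they were Sntb2 in OE-WD 2 (14.5 CPM), Dtna in OE-WD 4 (80.3 CPM), Etv5 in OE-CTD 1 (15.4 CPM), Pdgfra in OE-WD 2 (26.5 CPM) and Cd68 in OE-CTD 3 (7.83 CPM). With the filter on low counts, no interaction of diet and genotype had an adjusted p under 0.05 by edgeR among the listed genes, and with no filter Myog was called (0.00944).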

How the results depend on the processing

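Of 161 alternative values for the 10 fold changes given for neuromuscular junction genes, 0 changed sign and 7 passed the threshold that the main fit did not. The number of these genes called was 0 in each comparison and stayed 0 under all alternatives but 3. With no filter on low counts it was 1 in OE-CTD against CT-CTD and 1 in OE-WD against CT-WD. Leaving out each library in turn gave 0 to 2 in OE-WD against CT-WD, with 2 without CT-WD 1. Without both CT libraries numbered 1, chosen after seeing the data, it was 1 and 2. The cause was not tested. For the counts under alternatives, here and below, the share of all tested genes was not computed.

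The number with an unadjusted p under 0.05 in CT-WD against CT-CTD was 2, and 1 with only the groups compared, 1 with the replicate block, and 1 to 4 leaving out each library. In OE-WD against CT-WD it was 3, and 1 with limma on log2(FPKM + 1) or log2(FPKM + 0.1), 1 with the replicate block, 0 to 5 leaving out each library, and 6 without both CT libraries numbered 1. In OE-CTD against CT-CTD it was 2, and 4 without both. In the interaction it was 1, and 0 to 2 leaving out each library and 3 without both.

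Genes of the other lists called in OE-CTD against CT-CTD were 2, and 7 with DESeq2, 14 with no filter, 0 and 1 with limma (1 and 0.1 added), 10 with only the groups compared, 0 with the replicate block, 1 to 3 leaving out each library and 11 without both. In OE-WD against CT-WD they were 3, and 5, 8, 0 and 0, 0, 0, 0 to 20 and 24 under the same settings. In CT-WD against CT-CTD they were 0, and 3 with no filter, 0 to 1 leaving out each library and 2 without both, and in the interaction 0, and 1 with no filter (Myog). The same limit holds for these counts of the other lists. With the replicate block, no call was gained in these counts. Between OE-WD and OE-CTD the correlations within a number were 0.0711, 0.138, 0.142 and 0.338, which overlap those within CT. The check therefore does not set CT pairs apart from OE pairs. Between genotypes they ran from -0.23 to 0.0465, so there the block shares only a number.

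The Chrng to Chrne log2 ratio in OE-WD against OE-CTD differed by -0.20, and by 0.0251 without OE-WD 2, where leaving out each library gave -0.39 to 0.0251. With 2 to 20 counts of Chrng, depth limits this ratio.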

Other observations

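Musk was examined further after its values were seen. The genes whose log2 CPM was most like it over the 14 libraries were Sort1 (Pearson r = 0.978, Spearman rho = 0.969), Phka1 (0.972 and 0.978), C2cd2 (0.965 and 0.965), Zfand3 (0.963 and 0.956) and Dpp8 (0.96 and 0.956). They were picked from all tested genes for this likeness, so the values are a description.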
